A study of Vitis labrusca and Vitis cinerea and Vitis acerifolia with 56 samples.

Results

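Berries of 2 wild North American grapes, Vitis acerifolia and Vitis cinerea, were compared gene by gene before ripening and at its onset. The comparison uses 13 of the 56 RNA sequencing libraries of the study, namely every V. acerifolia and V. cinerea library taken 2 weeks before veraison (pre-veraison) or at veraison, the onset of ripening. The study was built around sunlight and describes both species as able to colour without it, in contrast to V. labrusca. V. acerifolia gave 2 pre-veraison libraries (1 in sunlight, 1 from clusters boxed until then) and 3 veraison libraries (1 in sunlight, 1 boxed until pre-veraison and then returned to light, 1 boxed until veraison). V. cinerea gave 3 pre-veraison libraries (1 in sunlight, 2 boxed until then) and 5 veraison libraries (2 in sunlight, 2 boxed until pre-veraison and then returned to light, 1 boxed until veraison). Below, clusters are called sunlight, re-exposed or boxed by their light at harvest. The boxes were covered with aluminium foil, and all vines had the same standard care. V. acerifolia had 1 library per condition and V. cinerea 1 or 2, with numbers 1 and 2 in the labels. Nothing in the labels says whether the numbered libraries came from separate vines, so p-values measure only the spread of these libraries around the fit.

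Anthocyanins, the red and purple pigments of grape skin, are made from phenylalanine. Phenylpropanoid enzymes (PAL, C4H, 4CL) make an activated cinnamic acid, chalcone synthase (CHS) and the enzymes after it build and hydroxylate the flavonoid skeleton, and DFR and LDOX turn it into coloured anthocyanidins. UFGT adds a sugar, AOMT and 3AT methylate and acylate the product, and GST4, AM1 and AM3 take it into the vacuole. In V. vinifera, the cultivated European grape, the MYBA factors switch on UFGT and with it colour at veraison. Side branches lead to proanthocyanidins (the tannins of young berries, through LAR and ANR), to flavonols (sunscreen pigments, through FLS1 and its activator MYBF1) and to stilbenes (defence compounds, through stilbene synthase, STS). Gene names here are those of V. vinifera gene models, recalled from the literature and not checked against an annotation. The files give identifiers without descriptions, so the berry label itself could not be checked with marker genes.

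Expression was compared as log2(FPKM + 1), where FPKM counts fragments per length of gene and per total of the library. A difference below is V. acerifolia minus V. cinerea within stage and light, and a gene is called when its limma adjusted p, over 18566 tested gene models of 29971, is under 0.05. Total FPKM was 1483250 to 1836089 in V. acerifolia and 901719 to 1306389 in V. cinerea. The median gene was 0.36 (log2) higher in V. acerifolia at pre-veraison and 0.45 higher at veraison. Median-ratio scaling of the libraries brought both to 0.05, and calls were made on that scale too. A call named below was lost on it only where this is said. Reads of both species were assigned to gene models of 1 grapevine annotation. A difference in transcript level, a difference in how well a species' sequence matches the gene model, and a difference between vines or sites cannot be told apart in these files. In whole berries, fewer cells of a type and less RNA per cell cannot be told apart either. Where a gene is listed at 0 the estimate may have failed: 8 gene models stood at 0 in 1 library and at 20 FPKM or more in the other 12.

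Species set the libraries apart far more than stage or light did. The first principal component carried 50.3% of the variance and placed the 5 V. acerifolia libraries on one side and the 8 V. cinerea libraries on the other. Pearson's r across genes was 0.925 to 0.960 between V. acerifolia libraries, 0.894 to 0.963 between V. cinerea libraries and 0.803 to 0.860 between the species. Each library was thus closer to every library of its own species than to any of the other. The second component (11.7%) held number 1 of V. cinerea on its positive side, at loadings of 0.08 to 0.54, and number 2 on its negative side, at -0.42 to -0.21. What the numbers stand for is not given in the labels, and their part in the results was not tested beyond the fit with the number as a term.

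**Figure D1:**
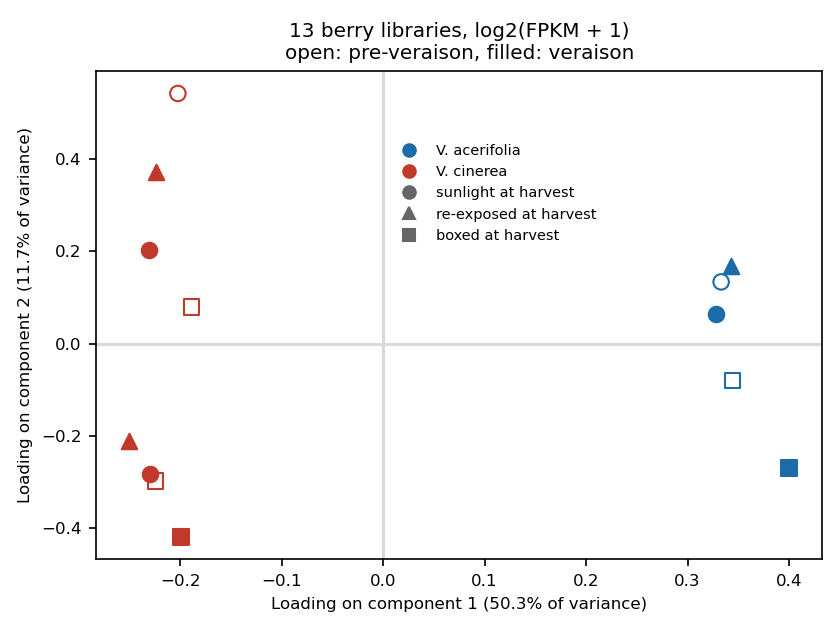
Loadings of the 13 libraries on the first and second principal components (50.3% and 11.7% of the variance) of log2(FPKM + 1) over the tested gene models. Colour gives the species, shape the light at harvest and filling the stage; all 5 V. acerifolia libraries lie at 0.33 to 0.40 on the first component and all 8 V. cinerea libraries at -0.25 to -0.19.

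At pre-veraison 5682 gene models were called (30.6% of those tested), 4213 higher in V. acerifolia (22.7%) and 1469 lower (7.91%). Scaling gave 4560 calls (24.6%), of which 2345 were higher and 2215 lower, so that higher genes made up 51.4% of the calls in place of 74.1%. On both scales 3806 gene models were called in one direction. The count rested on few libraries: it was 2422 without the boxed V. acerifolia library, 3251 without the sunlight one and 3254 without the sunlight V. cinerea library. At veraison, with more libraries, 8640 gene models were called (46.5%), 6767 higher (36.4%) and 1873 lower (10.1%). After scaling there were 6779 (36.5%), 3534 higher and 3245 lower, and higher genes went from 78.3% to 52.1% of the calls. Called on both scales were 5401.

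Most gene models called at pre-veraison were called at veraison too, while veraison had many calls of its own. Of the gene models higher in V. acerifolia at pre-veraison, 3764 were also higher at veraison, which is 89.3% of the first set and 55.6% of the second, beside 36.4% of all tested genes higher at veraison. Of the lower ones 1129 were shared, 76.9% and 60.3%, beside 10.1% of all tested genes. Both counts come from 1 fit with different libraries for each stage, and a call in opposite directions at the 2 stages occurred for 1 gene model higher at pre-veraison and 14 lower then. On both scales and at both stages 1874 gene models were higher and 1126 lower, and of these 606 and 236 differed over 4-fold and 55 and 24 over 16-fold. All 5 V. acerifolia libraries stood above all 8 V. cinerea libraries for 4414 gene models (23.8% of those tested) and below them for 1188 (6.40%). Within pre-veraison this held for 6994 (37.7%) and 2635 (14.2%), and within veraison for 6709 (36.1%) and 1829 (9.85%).

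**Figure D2:**
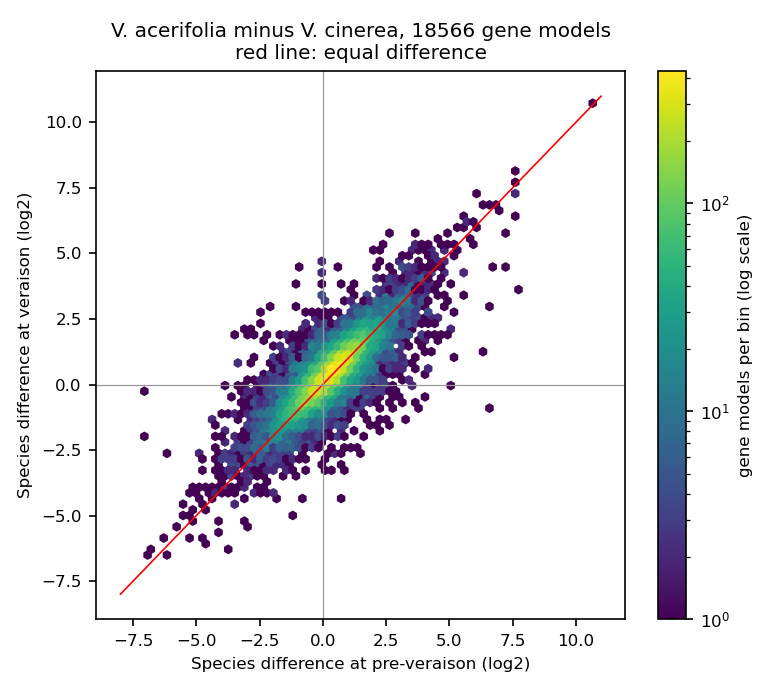
Species difference at veraison against that at pre-veraison for the 18566 tested gene models, in log2(FPKM + 1), V. acerifolia minus V. cinerea. Colour gives the number of gene models per bin on a log scale; the cloud lies along the red line of equal differences, with its centre above 0 on both axes (medians 0.36 and 0.45).

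The labels give 1 anthocyanin concentration per library, without a unit. It was 0 in all 5 V. acerifolia libraries and in the 3 pre-veraison V. cinerea libraries. At veraison V. cinerea berries held 0.083 and 0.016 in sunlight, 0.2 and 0.112 after re-exposure and 0 in the box. Pigment was therefore recorded in the 4 V. cinerea libraries that were in light at harvest and in no V. acerifolia library. Among these 4 its order was not that of UFGT expression, described below. At concentrations of 0.2, 0.112, 0.083 and 0.016, UFGT stood at 5.32, 341, 72.8 and 266 FPKM. The mean concentrations at veraison were 0 in V. acerifolia (n = 3) and 0.0822 in V. cinerea (n = 5). Labels permuted within light treatment gave an exact two-sided p = 0.111. The 18 arrangements alone would allow 0.0556, but both boxed libraries were at 0, so swapping them changes nothing. These values could thus give no p under 0.111.

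The 11 anthocyanin genes split between the species. At pre-veraison 2 of the 11 were called, both higher in V. acerifolia and on both scales, beside 22.7% higher and 7.91% lower over all tested genes. At veraison 2 were higher (1 on both scales) and 5 were lower (5 on both scales) (over all tested genes, 36.4% were higher and 10.1% lower). Higher were DFR, before the pigment, and the transporter gene AM1. Lower were MYBA1, MYBA2, AOMT, GST4 and AM3. Over all 11 anthocyanin genes the median difference at veraison was -2.16, against 0.45 over all tested genes. No set test was made.

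DFR (VIT_18s0001g12800), which reduces dihydroflavonols on the way to anthocyanidins and tannins, was among the steadiest of these genes. In V. acerifolia it stood at 305 (sunlight) and 246 FPKM (boxed) at pre-veraison and at 234 (sunlight), 288 (re-exposed) and 260 (boxed) at veraison. V. cinerea had 159 in sunlight and 83.7 and 57.4 boxed at pre-veraison, then 62.9 and 89.6 in sunlight, 71.4 and 80.0 re-exposed and 69.4 boxed. All V. acerifolia values lay above all V. cinerea values. The difference was 1.44 ± 0.27 (SE) at pre-veraison (adjusted p = 0.0043) and 1.80 ± 0.21 at veraison (adjusted p = 0.00023), and both held after scaling. Without the boxed pre-veraison V. acerifolia library the first fell to 0.94 and lost its call (adjusted p = 0.116).

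LDOX (VIT_02s0025g04720), the next enzyme, was not called. It stood at 618 and 406 FPKM in pre-veraison V. acerifolia and at 743, 795 and 350 at veraison. V. cinerea gave 270, 83.1 and 38.0 at pre-veraison and 509, 756, 168, 908 and 47.4 at veraison, in the order sunlight 1, sunlight 2, re-exposed 1, re-exposed 2 and boxed. At pre-veraison the groups did not overlap (difference 2.13, adjusted p = 0.067), and at veraison they did (1.25, adjusted p = 0.131). In both species the boxed libraries were the lowest of their stage, at 350 FPKM or more in V. acerifolia and 83.1 or less in V. cinerea. LDOX was called higher at pre-veraison without either re-exposed V. cinerea library, and at veraison without the second of them (adjusted p = 0.036).

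The MYBA regulators were near 0 in V. acerifolia. MYBA1 (VIT_02s0033g00410) was listed at 0 in 4 of its 5 libraries and at 1.53 FPKM in the boxed veraison library. V. cinerea had 9.40 in sunlight and 0 in both boxed libraries at pre-veraison, and 13.7, 39.0, 6.27, 45.9 and 0.457 at veraison, in the order given for LDOX. Every V. cinerea library in light at veraison was above every V. acerifolia library, and the boxed one was not. MYBA1 met the filter for testing (1 FPKM or more in at least 2 libraries) through V. cinerea, the species where it is high. MYBA2 (VIT_02s0033g00390) stood at 0 and 1.15 FPKM, then 0.512, 0.709 and 1.39 in V. acerifolia. In V. cinerea it was 1.51, 0 and 0 at pre-veraison and 20.9, 70.3, 9.52, 51.7 and 1.51 at veraison, with no overlap at that stage. Both were lower at veraison: MYBA1 by -2.98 ± 1.04 (adjusted p = 0.040) and MYBA2 by -3.11 ± 0.87 (adjusted p = 0.017), also after scaling. The MYBA2 call was lost without the sunlight or the re-exposed V. acerifolia veraison library. That of MYBA1 was lost in 10 of the alternatives, among them without either of those 2 libraries, either boxed pre-veraison V. cinerea library, either sunlight veraison V. cinerea library or the second re-exposed one. MYBA3 (VIT_02s0033g00450) reached 1.77 FPKM in V. acerifolia and 34.1 in V. cinerea and was not called (-1.79, adjusted p = 0.238). These 3 genes are near copies, so reads may have been split among them.

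UFGT (VIT_16s0039g02230), the glucosyltransferase whose product is the stable pigment, did not pass. It stood at 1.25 and 0 FPKM in V. acerifolia at pre-veraison and at 3.32, 4.79 and 9.29 at veraison. In V. cinerea it was 3.24, 0.463 and 0.347, then 72.8, 266, 5.32, 341 and 6.79. Within V. cinerea, 3 of the 4 libraries in light at veraison lay far above all others, and the first re-exposed library did not. With that spread the difference of -2.81 ± 1.26 had an adjusted p of 0.095. It was called lower without that library (-3.65, adjusted p = 0.018) and without either boxed veraison library (-4.01, adjusted p = 0.049). The same held in a fit of 25 libraries, with V. labrusca and young V. cinerea berries added (adjusted p = 0.044).

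Methylation and transport genes followed a like order of libraries. AOMT (VIT_01s0010g03510), which methylates anthocyanins, was listed at 0 in 4 of the 5 V. acerifolia libraries and at 0.966 FPKM in the sunlight pre-veraison one. V. cinerea had 1.29, 0.438 and 2.81, then 18.4, 24.6, 2.08, 24.3 and 1.96. At veraison the groups did not overlap and the gene was lower in V. acerifolia (adjusted p = 0.0063). No fold is given against a group at 0, and the call was lost without the sunlight veraison V. acerifolia library. AOMT reached the 1 FPKM of the filter only in V. cinerea, so it was tested only through the species where it is high. The acyltransferase 3AT (VIT_03s0017g00870) reached 2.36 FPKM in V. acerifolia and 29.2 in V. cinerea, was not called at either stage and overlapped at both. Without the first re-exposed V. cinerea library it was called lower at veraison (-2.08, adjusted p = 0.0497).

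GST4 (VIT_04s0079g00690), a glutathione S-transferase that carries anthocyanins to the vacuole, stood at 21.9 and 0 FPKM in pre-veraison V. acerifolia and 15.7, 52.7 and 20.5 at veraison. It was 76.5, 3.62 and 1.29 in pre-veraison V. cinerea and 354, 1047, 85.0, 1109 and 16.8 at veraison. The V. cinerea libraries in light at veraison were above all V. acerifolia libraries, and the boxed one lay among them. The difference of -2.73 ± 1.01 was at the edge of the threshold (adjusted p = 0.0495) and lost its call in 19 alternatives, including without any one library other than the boxed V. acerifolia, the first re-exposed V. cinerea or the boxed V. cinerea library of veraison. AM3 (VIT_16s0050g00910), a vacuolar transporter of acylated anthocyanins, stood at 8.69 and 8.40, then 14.1, 22.6 and 7.84 FPKM in V. acerifolia. V. cinerea had 41.3, 4.70 and 4.42, then 142, 218, 43.0, 261 and 9.60. The light libraries of V. cinerea again stood above, and the boxed one fell among the V. acerifolia values. AM3 was lower at veraison (-2.16 ± 0.73, adjusted p = 0.037), a call lost without the sunlight or re-exposed V. acerifolia library, without either sunlight V. cinerea library and without the second re-exposed one.

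Its neighbour AM1 (VIT_16s0050g00930), a transporter of the same family, went the other way. V. acerifolia had 114 and 138, then 168, 168 and 126 FPKM. V. cinerea had 58.3, 72.5 and 52.4, then 82.8, 95.9, 89.1, 108 and 81.0. The species did not overlap within either stage. AM1 was higher by 1.06 ± 0.20 at pre-veraison (adjusted p = 0.0045; lost without the boxed V. acerifolia library) and by 0.78 ± 0.16 at veraison (adjusted p = 0.0035), and after scaling only the first was called.

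**Figure D3:**
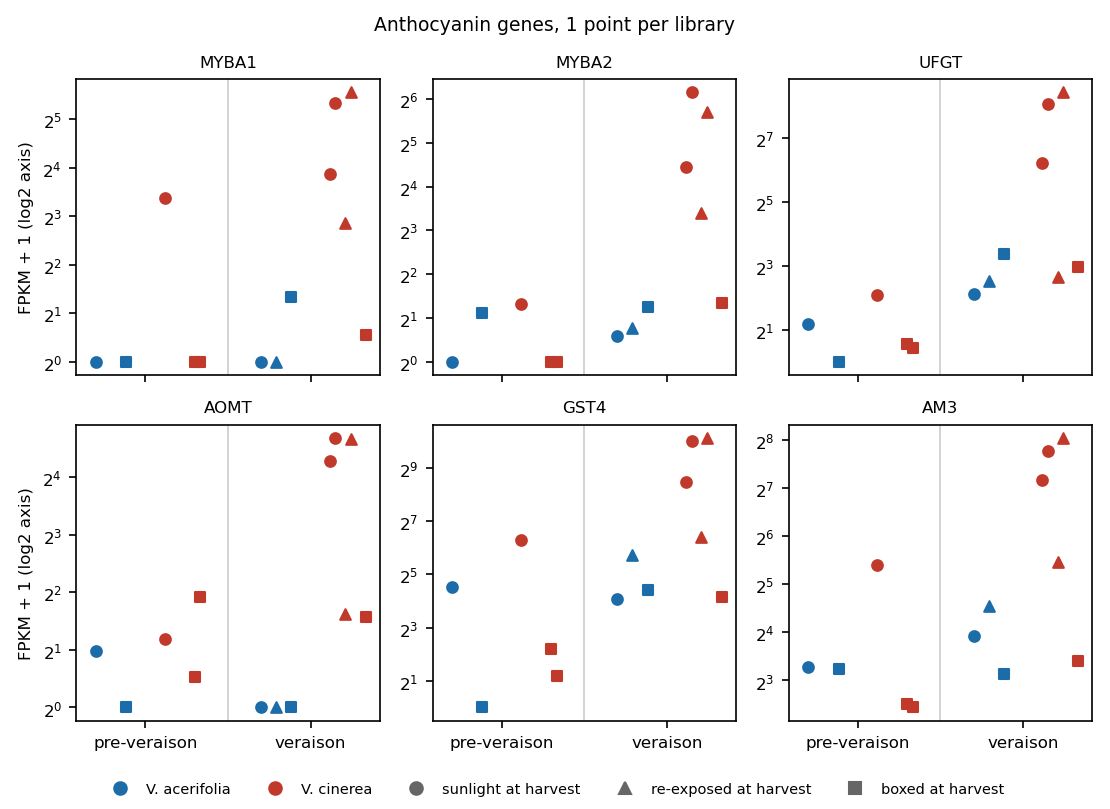
FPKM + 1 on a log2 axis for 6 anthocyanin genes, 1 point per library, by stage. Colour gives the species and shape the light at harvest; for MYBA1, GST4 and AM3 the 4 V. cinerea veraison libraries in light lie above every V. acerifolia library, and the boxed V. cinerea library lies among them.

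The species difference of these pigment genes was set beside light at harvest, in a fit chosen after seeing the data. Over both stages the MYBA1 difference was -4.12 among libraries in light and 0.34 among boxed ones. For AM3 the values were -2.67 and 0.32, for MYBA2 -3.45 and 0.60, and for LDOX 0.79 and 2.84. The differences given above for these genes come from a species term per stage and average over all kinds of light. The contrast of light minus boxed had a limma unadjusted p of 0.00098 for MYBA1, 0.0066 for AM3, 0.0057 for MYBA2 and 0.0299 for LDOX. None passed after adjustment over all genes, where the adjusted p was 0.338 for MYBA1 and 0.55 to 0.83 for the others. With V. labrusca and young V. cinerea berries in the fit (25 libraries) MYBA1 did pass (-4.47, adjusted p = 0.042). Of the 11 anthocyanin genes these 4 had an unadjusted p under 0.05, all with a lower difference in light than in boxes, against 2.2% of tested genes in that direction. This was not particular to the anthocyanin genes. The same held for 5 of 8 tested phenylpropanoid genes, 7 of 10 STS identifiers and 1 of 9 F3'5'H identifiers, and 1 of 2 flavonol genes went the other way. Only 6 gene models passed the adjustment (0.0323%), 3 each way, and none of them is a listed gene. Boxed veraison V. cinerea is 1 library, and leaving out single libraries moved the count of 6 between 1 and 16.

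Of 8 early flavonoid genes tested, F3H1, F3H2, CHS1 and F3'H were higher in V. acerifolia at veraison. These 4 were called on both scales and 0 were lower, beside 36.4% higher over all tested genes (19.0% after scaling). At pre-veraison 1 was higher, a call lost on scaling, beside 22.7%. F3H2 (VIT_18s0001g14310), a flavanone 3-hydroxylase that makes dihydroflavonols, stood at 457 and 381, then 765, 545 and 476 FPKM in V. acerifolia. V. cinerea had 306, 159 and 97.8, then 249, 267, 223, 289 and 112. With no overlap at either stage, F3H2 was higher by 1.16 ± 0.32 at pre-veraison (adjusted p = 0.025) and by 1.54 ± 0.26 at veraison (adjusted p = 0.0014). The pre-veraison call was lost after scaling, without the boxed V. acerifolia library and without the second boxed V. cinerea library. Its paralog F3H1 (VIT_04s0023g03370) stood at 202 and 290, then 206, 345 and 592 FPKM in V. acerifolia. V. cinerea gave 189, 118 and 24.5, then 42.3, 87.5, 81.0, 115 and 35.2. Again the groups did not overlap, and F3H1 was called at veraison (2.4 ± 0.62, adjusted p = 0.012), a call lost without either species' boxed veraison library.

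CHS1 (VIT_14s0068g00930), a chalcone synthase, stood at 59.2 and 20.9, then 49.4, 74.1 and 27.7 FPKM in V. acerifolia. In V. cinerea it was 33.4, 21.3 and 11.3, then 15, 27.6, 18.1, 22.8 and 9.74. The lowest V. acerifolia library at veraison, the boxed one, was level with the highest V. cinerea library. CHS1 was higher by 1.5 ± 0.27 at veraison (adjusted p = 0.0019) and not called at pre-veraison (0.58, adjusted p = 0.216). F3'H (VIT_17s0000g07200), which adds the hydroxyl group of cyanidin-type pigments, stood at 115 and 149, then 161, 146 and 217 FPKM against 89.0, 58.7 and 34.2, then 43.7, 84.0, 34.4, 70.3 and 70.7. It did not overlap at either stage and was called at veraison (1.51 ± 0.34, adjusted p = 0.0061). CHS2, CHS3, CHI1 and CHI2, the other chalcone synthases and the chalcone isomerases, were not called at either stage. Among them CHS3 (VIT_05s0136g00260) ranged from 742 to 990 FPKM in V. acerifolia and from 361 to 2948 in V. cinerea, where 2 of the 4 veraison libraries in light were the highest.

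The F3'5'H genes, which make the delphinidin-type pigments, form a tandem family on chromosome 6. Identifiers between the family's ends numbered 26, of which 14 were at 0 in all 13 libraries and 9 were tested. That interval may hold other genes, and copies share reads. At pre-veraison 2 of the 9 were higher (1 on both scales), and at veraison 2 were higher and 1 lower, all 3 on both scales. Over all tested genes 22.7% were higher at pre-veraison, and 36.4% were higher and 10.1% lower at veraison. VIT_06s0009g02830 was present in V. acerifolia only: 47.7 and 88.8, then 39.5, 47.2 and 50.6 FPKM, against 0 to 0.755 in V. cinerea, where 5 of 8 libraries were listed at 0. Its differences were 5.91 ± 0.38 and 5.29 ± 0.30 (adjusted p = 5.8e-05 and 9.16e-06). It reached the 1 FPKM of the filter only in V. acerifolia, so it was tested only through the species where it is high. V. cinerea values near 0 add little spread, so the small p-values are no separate support. VIT_06s0009g02860 had the opposite pattern at veraison, at 0 in all 3 V. acerifolia libraries and at 6.87, 10, 1.44, 8.17 and 2.17 FPKM in V. cinerea (adjusted p = 0.0055). That call was lost without the sunlight veraison V. acerifolia library. This gene model met the filter only through V. cinerea, the species where it is high. Whether reads of neighbouring copies were assigned differently in the species was not tested. VIT_06s0009g02840 stood at 16 and 37.5, then 23.7, 30.0 and 20.7 FPKM against 2.76, 2.93 and 3.60, then 4.16, 18.3, 1.31, 12.3 and 1. It did not overlap within either stage and was higher by 2.75 ± 0.81 and 2.32 ± 0.64 (adjusted p = 0.030 and 0.016). The first call was lost after scaling and without any of the 5 pre-veraison libraries, and the second without either boxed veraison library or the re-exposed V. acerifolia one.

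Before the flavonoid steps, 4CL activates cinnamic acids with coenzyme A. The gene model VIT_11s0052g01090 stood at 58.3 and 74.6, then 68.7, 48.5 and 41.6 FPKM in V. acerifolia. Levels in V. cinerea were 8.98, 10.5 and 5.15, then 7.49, 3.37, 7.27, 4.03 and 5.76. The species were far apart at both stages and in every kind of light, with differences of 2.91 ± 0.41 (adjusted p = 0.0013) and 3.07 ± 0.33 (adjusted p = 0.00014). The model VIT_16s0039g02040 gave 233 and 109, then 152, 214 and 140 FPKM against 84.3, 26.1 and 9.86, then 51.2, 34.6, 47.0, 41.2 and 8.05. Its differences were 2.16 ± 0.53 (adjusted p = 0.015; lost without the boxed pre-veraison V. acerifolia library) and 2.56 ± 0.43 (adjusted p = 0.0013), with no overlap. Another 4CL model, VIT_16s0050g00390, overlapped at both stages and was not called. Of 8 tested phenylpropanoid genes, 3 were higher and 0 lower at pre-veraison (2 on both scales), and 2 were higher and 0 lower at veraison (2 on both scales). The shares higher over all tested genes were 22.7% and 36.4%. The remaining pre-veraison call was the C4H model VIT_11s0065g00350 (1.51, adjusted p = 0.0486), at 4.77 FPKM or less in every library, which was lost in 17 alternatives, including without any single library other than either sunlight pre-veraison library or the first re-exposed V. cinerea one. The PAL genes outside the tandem family were not called, although VIT_08s0040g01710 was called higher at pre-veraison in 4 alternatives, among them without either sunlight library of that stage (2.01, adjusted p = 0.049). In the PAL family interval of chromosome 16, 2 of 25 identifiers were tested and both were higher at veraison, 1 of them (VIT_16s0039g01310, 1.28, adjusted p = 0.011) on both scales, at 3.74 FPKM or less.

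Both proanthocyanidin genes of the LAR step were higher in V. acerifolia at veraison. LAR enzymes make catechin, a tannin unit. LAR2 (VIT_17s0000g04150) stood at 109 and 149, then 124, 286 and 186 FPKM in V. acerifolia. V. cinerea had 84.5, 50.1 and 51.1, then 35.6, 33.6, 64.6, 71.0 and 61.9. Without overlap at either stage, LAR2 was higher by 1.04 ± 0.25 at pre-veraison (adjusted p = 0.015; lost after scaling and without the boxed V. acerifolia library) and by 1.84 ± 0.20 at veraison (adjusted p = 0.00017). LAR1 (VIT_01s0011g02960) gave 8.29 and 6.28, then 7.69, 7.86 and 6.61 FPKM against 3.71, 2.87 and 0.931, then 2.18, 0, 1.91, 0.76 and 0.919. It too did not overlap and was called at veraison (2.09 ± 0.41, adjusted p = 0.0031). That call was lost in the fit of 25 libraries. ANR (VIT_00s0361g00040), which makes epicatechin from anthocyanidin, was not called: 38.1 and 39.6, then 36.2, 48.7 and 44.4 FPKM against 91.5, 64.7 and 19.5, then 11.4, 14.2, 41.8, 9.29 and 18.4. Its V. cinerea values were highest at pre-veraison, above V. acerifolia in 2 of 3 libraries, and at veraison only the first re-exposed library reached the V. acerifolia range (1.31, adjusted p = 0.059). ANR was called higher at veraison in 5 alternatives, among them without that library (1.62, adjusted p = 0.015), without the second boxed pre-veraison V. cinerea library (adjusted p = 0.028) and with the V. cinerea number as a term (adjusted p = 0.030). The regulator MYBPA1 (VIT_15s0046g00170) was not called either, except lower at pre-veraison with that number as a term (-1.71, adjusted p = 0.016). In all, 2 of 4 tested genes of this branch were higher at veraison on both scales and 0 were lower, beside 36.4% higher over all tested genes (19.0% after scaling).

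MYBF1 (VIT_07s0005g01210), the activator of flavonol synthesis, stood at 17.2 and 21.3, then 20.6, 22.7 and 37.9 FPKM in V. acerifolia. V. cinerea had 3.53, 6.57 and 12.4, then 0, 2.16, 1.27, 0.85 and 10.8. In both species the boxed libraries were the highest of their stage. MYBF1 was higher by 3.06 ± 0.47 at veraison (adjusted p = 0.00082) and did not overlap at either stage (pre-veraison 1.51, adjusted p = 0.076, or 0.038 without the first sunlight veraison V. cinerea library). Its target FLS1 (VIT_18s0001g03470), flavonol synthase, was low in both species and not called. It reached 2.64 FPKM in V. acerifolia and 3.92 in V. cinerea, and it was listed at 0 in all 5 boxed libraries.

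**Figure D4:**
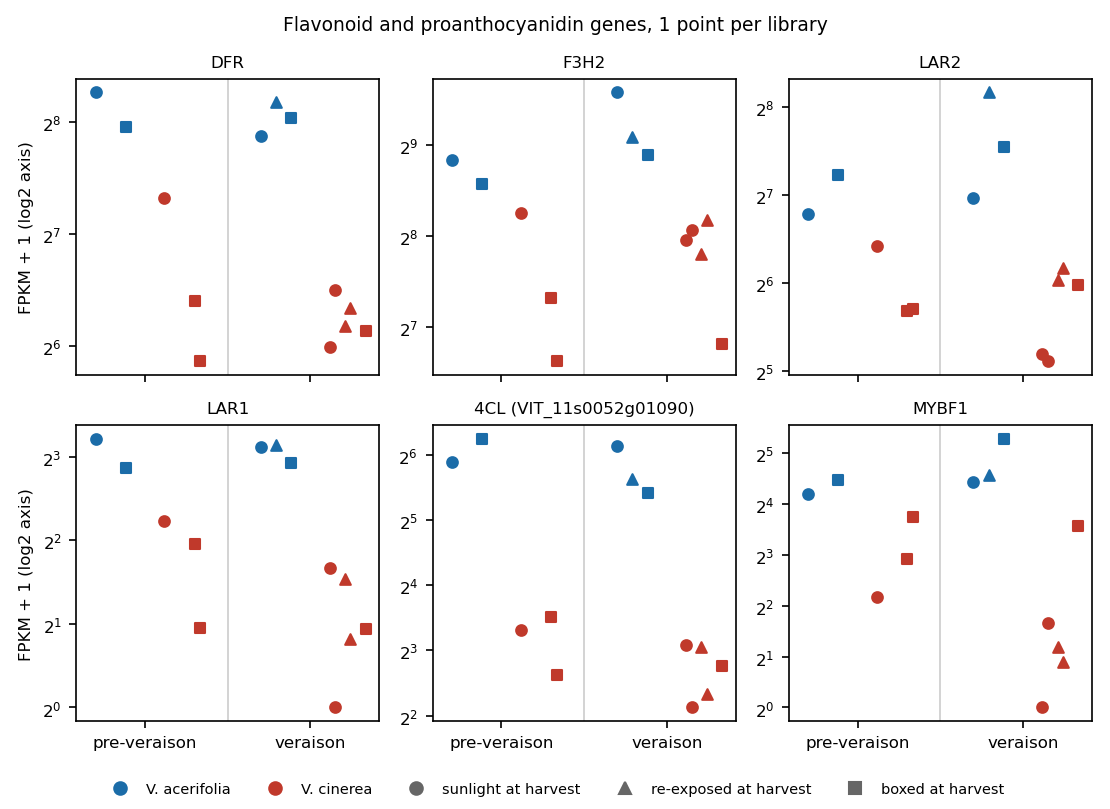
FPKM + 1 on a log2 axis for DFR, F3H2, LAR1, LAR2, a 4CL gene model and MYBF1, 1 point per library, by stage. Colour gives the species and shape the light at harvest. Within each stage every V. acerifolia library lies above every V. cinerea library in all 6 panels. Over all tested gene models this held for 37.7% at pre-veraison and 36.1% at veraison. CHS2, CHS3, CHI1 and CHI2, not shown, overlapped at both stages.

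HY5 and HYH, bZIP factors that act downstream of plant light receptors, were low in boxes in both species. HYH (VIT_05s0020g01090) stood at 7.58 (sunlight) and 0.439 (boxed), then 11.2, 4.63 and 0.486 FPKM in V. acerifolia. Its V. cinerea values were 3.38, 0 and 0, then 2.45, 2.53, 2.62, 1.27 and 0. Within each kind of light V. acerifolia was the higher, and HYH was called at veraison (1.17 ± 0.29, adjusted p = 0.010; lost without the sunlight V. acerifolia library). HY5 (VIT_04s0008g05210) gave 489 and 118, then 340, 409 and 66.1 FPKM against 315, 25.4 and 46.9, then 171, 162, 373, 159 and 52.6. The groups overlapped at both stages, at pre-veraison through the boxed V. acerifolia library. At veraison they overlapped in light too, where the first re-exposed V. cinerea library (373) exceeded sunlight V. acerifolia (340). The pre-veraison call (1.27, adjusted p = 0.043) was lost after scaling and without any single library other than the 2 re-exposed V. cinerea ones. Without the first of these HY5 was called at veraison (0.92, adjusted p = 0.033).

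NCED1 (VIT_19s0093g00550), which makes the ripening hormone abscisic acid, was low in both species. It stood at 2.47 and 1.54, then 0.787, 1.72 and 0.323 FPKM in V. acerifolia and at 3.17, 2.34 and 0.847, then 3.25, 2.56, 1.49, 5.81 and 2.94 in V. cinerea. At veraison only the re-exposed V. acerifolia library exceeded a V. cinerea one, and the difference of -1.06 ± 0.38 (adjusted p = 0.045) was lost in 16 alternatives, including without any single library other than the second boxed pre-veraison or the first re-exposed V. cinerea one. The vacuolar invertases GIN1 (VIT_16s0022g00670) and GIN2 (VIT_02s0154g00110), which split sucrose as berries fill with sugar, were not called. GIN2 (0.78, adjusted p = 0.063 at veraison) was called higher at veraison in 7 alternatives, among them without either boxed veraison library (1.16, adjusted p = 0.011). GIN1 ranged from 1580 to 1891 FPKM in V. acerifolia and from 741 to 2298 in V. cinerea.

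Stilbene synthases were near 0 in most libraries, and 10 of 49 identifiers in the family's intervals passed the filter. At pre-veraison 1 of the 10 was higher on both scales, and at veraison 1 was higher, a call lost on scaling (over all tested genes, 22.7% and 36.4% were higher). VIT_16s0100g01100 stood at 3.64 (sunlight) and 24.3 (boxed), then 6.42, 11.1 and 28.9 (boxed) FPKM in V. acerifolia and between 1.57 and 4.72 in V. cinerea. It did not overlap within either stage and was called at veraison (1.57, adjusted p = 0.029), a call lost without the re-exposed or boxed V. acerifolia library, the second re-exposed V. cinerea one or its boxed one. At pre-veraison it was called in 6 alternatives, among them without either sunlight library of that stage (3.07, adjusted p = 0.014 and 0.015). VIT_16s0100g00770 was at 0.559 and 3.10, then 0, 0 and 2.29 FPKM against 0 in 7 of 8 V. cinerea libraries, and was called at pre-veraison (1.44, adjusted p = 0.031; lost without any of the 3 boxed libraries of that stage). Both were highest in the boxed V. acerifolia libraries, and VIT_16s0100g00770 could not have met the filter without them. In the contrast of light minus boxed, 7 of the 10 had an unadjusted p under 0.05 and all 7 pointed to a larger V. acerifolia excess in boxes, against 2.2% of tested genes. None passed after adjustment, and near copies share reads, so the 7 are not separate measurements.

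**Figure D5:**
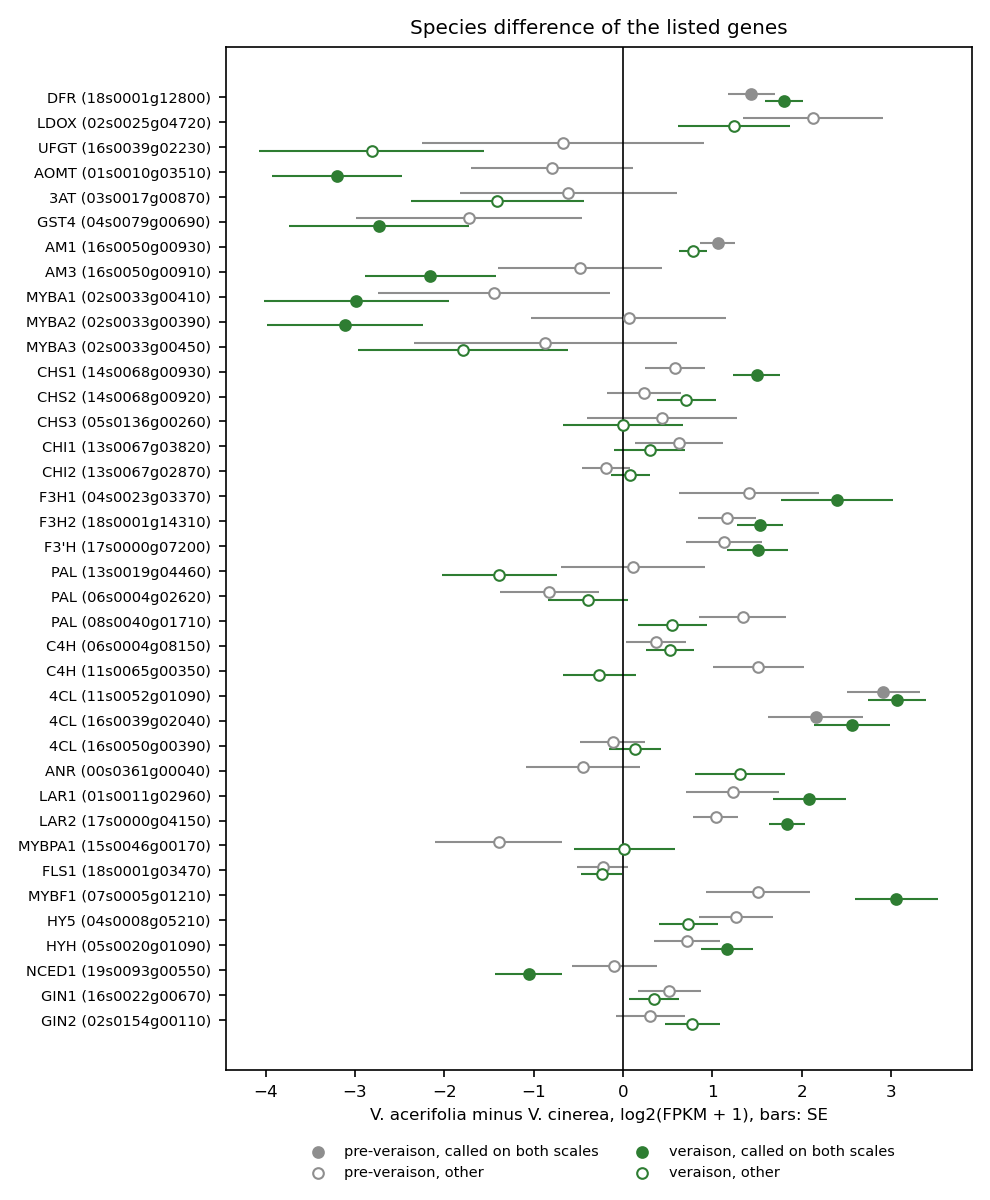
Species difference (V. acerifolia minus V. cinerea, log2(FPKM + 1)) for the individually listed genes, with SE, at pre-veraison (grey) and veraison (green). Filled points were called on both scales; DFR, F3H1, F3H2, LAR1, LAR2, MYBF1 and both leading 4CL models lie to the right, and AOMT, GST4, AM3, MYBA1, MYBA2 and NCED1 to the left at veraison.

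Few genes were called for a change of their species difference between the stages. Only 2 V. acerifolia libraries were pre-veraison, so a gene not called may still have changed. The contrast of veraison minus pre-veraison called 8 gene models (0.0431%), of which 6 rose and 2 fell, and 1116 had an unadjusted p under 0.05. None of the listed genes was among the 8. The largest listed change was that of MYBA2 (-3.17 ± 1.40, unadjusted p = 0.049 in limma, adjusted p = 0.83). Counts were 3 without the boxed pre-veraison V. acerifolia library, 2 without the sunlight veraison one, 15 without the boxed veraison one and 14 without the boxed veraison V. cinerea library. The stage change within a species was taken over sunlight and boxed conditions, without the re-exposed one. It comes from the same fit, whose stage-by-light conditions are shared by both species. Libraries of each species therefore enter the change given for the other. Where the species difference varies with light, this can shift both changes. From pre-veraison to veraison, 13 gene models were called in V. acerifolia (0.0700%, of which 9 rose and 4 fell) and 1 in V. cinerea (0.00539%, it fell). At an unadjusted limma p under 0.05 there were 1542 and 1706. No listed gene passed that adjustment, where the smallest adjusted p was 0.616 in V. acerifolia and 0.404 in V. cinerea. In V. cinerea 12 of the 59 tested listed genes had an unadjusted limma p under 0.05, 9 of them higher at veraison, and in V. acerifolia 0 had. Among the 12 were MYBA2 (3.32 ± 0.96, adjusted p = 0.404), UFGT (4.23 ± 1.39, adjusted p = 0.452) and GST4 (3.06 ± 1.11, adjusted p = 0.493), all higher at veraison. The V. acerifolia count was 2 and 30 without its boxed and its sunlight pre-veraison library, 6 without its sunlight veraison library, 23 without the sunlight pre-veraison V. cinerea library, and 8 without the second boxed pre-veraison or the first sunlight veraison V. cinerea library. That of V. cinerea lay between 0 and 4 when single libraries were left out.

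Among gene models called in the same direction at both stages, the largest differences belonged to identifiers that no file describes. VIT_01s0011g05180 stood at 4043 and 2820, then 4752, 3155 and 3340 FPKM in V. acerifolia and at 5.67 or less in every V. cinerea library (differences 10.67 and 10.73, adjusted p = 4.16e-05 and 4.97e-06). VIT_13s0067g02270 gave 265 and 287, then 228, 214 and 414 FPKM against 2.82 in the first boxed pre-veraison V. cinerea library and 0 in the other 7. In the other direction, VIT_01s0011g05150 stood at 0.6 to 2.60 FPKM in V. acerifolia and at 50 to 1119 in V. cinerea (differences -6.80 and -6.51, adjusted p = 0.00095 and 0.00016). VIT_14s0068g00490 was listed at 0 in all 5 V. acerifolia libraries and lay between 55.6 and 206 FPKM in V. cinerea. This model and VIT_13s0067g02270 could meet the filter only through the species where they are high. VIT_01s0011g05180 and VIT_01s0011g05150 have identifiers close to each other on chromosome 1 and opposite patterns. Whether reads of 1 gene went to different models in the species was not tested.

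Presence in 1 species and absence in the other was also counted over all gene models. Of 13057 gene models at 1 FPKM or more in all 8 V. cinerea libraries, 38 stood under 0.01 in all 5 V. acerifolia libraries. Of 14317 at 1 or more in all 5 V. acerifolia libraries, 40 had the reverse. In the 10 V. labrusca libraries up to veraison, young berries included, the first set had a median of 1 FPKM or more for 15 and was near 0 throughout for 3. The second set gave 13 and 15. Gene models firmly higher in V. acerifolia (both stages, both scales) had a median of 12.9 FPKM and those firmly lower 21.7, against 10.6 over all tested. By the chromosome in the identifier, 7.21% to 11.7% of tested models were firmly higher and 4.70% to 7.84% firmly lower. The next tested model along the chromosome was also firmly higher for 14.5% of the firmly higher ones, against 10.1% of all tested, and also firmly lower for 8.33% of the lower ones, against 6.06%. The longest run held 6 neighbouring models on chromosome 18, all higher. The second most abundant gene model of V. acerifolia took 2.39% to 5.52% of its FPKM and 0.0313% to 0.614% in V. cinerea, and it enters the total by which FPKM is scaled.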

How the data were processed

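Total RNA of berries was sequenced, and the authors aligned reads with TopHat2 2.0.14 and estimated FPKM with Cufflinks 2.2.1, per the submitters' processing notes. The deposited FPKM table holds 29971 gene models. No genome build is named in the labels or file. FPKM values carry no read counts, so the depth behind each value is unknown.

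Libraries were grouped by title and description. From the deposited FPKM, log2(FPKM + 1) was analysed for the 18566 models at 1 FPKM or more in at least 2 of the 13 libraries, with limma 3.58.1 in R 4.3.3 (empirical Bayes with trend, Benjamini-Hochberg adjusted p under 0.05). The design had 5 stage-by-light conditions and a species term per stage, leaving 6 residual degrees of freedom, and so assumed that single V. acerifolia libraries vary like the others. It also took the species difference as equal in every light of a stage. Where that difference varies with light, the departure enters the residual spread, and with it the SE and p-values. The fit was also run on simulated data, with independent normal noise and a species difference equal in every light. That run cannot test the assumptions above. Anthocyanin concentrations were compared by an exact two-sided permutation test.

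Alternatives were another pseudocount, other filters, median-ratio scaling, a mean per group, light ignored, no trend, each stage alone, and leaving out each library. Others were the replicate number as a term and a fit of 25 libraries, with V. labrusca and young V. cinerea berries added. A fit of the libraries in light and the contrast of light minus boxed were chosen after seeing the data. The genes and lists were chosen with earlier results of these data known. Named were every tested anthocyanin gene, at most 4 genes of each other list by smallest p, and at most 2 undescribed identifiers each way per comparison; other listed genes are named only as not called. Lists that need gene descriptions (seed, photosynthesis and other markers) could not be formed. No test of gene lists was made.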

Additional observations from a re-analysis of the deposited data

Results flagged for a closer look

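The following gene models were picked out because their species difference itself changed between pre-veraison and veraison in the test across all genes. No file describes what they encode.

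VIT_00s0531g00020 changed by 6.71 (log2). It was at 0 in both pre-veraison V. acerifolia libraries and at 340, 60.8 and 152 FPKM at veraison, while V. cinerea lay between 47.8 and 280 throughout. The call was lost in 5 alternatives, namely a mean per group and without either pre-veraison V. acerifolia library, the sunlight veraison V. acerifolia library or the sunlight pre-veraison V. cinerea library. VIT_10s0092g00110 changed by 5.47. Of its pre-veraison V. acerifolia libraries the boxed one was at 0 and the sunlight one at 25.6 FPKM, and at veraison all 3 lay between 56.5 and 189. It was not called with a pseudocount of 0.1, a mean per group, light ignored or the fit of 25 libraries. Without the boxed pre-veraison or the sunlight veraison V. acerifolia library it was not called either, 6 alternatives in all.

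VIT_11s0078g00220 changed by -4.96. It stood at 23.7 and 35.9 FPKM in pre-veraison V. acerifolia and near 0 in the other 11 libraries. No single library removed this call, but a pseudocount of 0.1, the stricter filter and the fit of 25 libraries did. This gene model reached the 1 FPKM of the filter only in pre-veraison V. acerifolia. It was therefore tested only through the group where it is high. Values near 0 in the other 11 libraries add little spread, so keeping the call without single libraries is no separate support. VIT_04s0023g03460 changed by -2.73, from 6.37 and 5.12 FPKM in pre-veraison V. acerifolia to 0 in all others. It too passed the filter only through pre-veraison V. acerifolia. Its call was lost after median-ratio scaling, with a pseudocount of 0.1, with the stricter filter, with the V. cinerea number as a term and without any 1 of the 13 libraries.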

How the results depend on the processing

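No named gene reversed direction in any alternative while called. At pre-veraison 8 of 19 called named genes kept the call in every alternative, and at veraison 14 of 29. The pre-veraison count of 5682 became 1877 with each stage alone and 946 with only libraries in light (chosen after seeing the data), and 2422 to 5939 without single libraries; fewer libraries entered all of these. The veraison count of 8640 stayed between 5823 and 8922 without single libraries. The count of 8 for the change between stages was 2 with a pseudocount of 0.1, 16 without a filter, 5 with a minimum of 5 FPKM, 68 with a mean per group, and 2 to 15 without single libraries. The stage change in V. acerifolia (13) gave 32 without a filter, 5 with the stricter one, 123 with a mean per group, 39 with 25 libraries, 23 without the trend, and 2 to 30 without single libraries. That in V. cinerea (1) gave 0 with a pseudocount of 0.1, without a filter or with light ignored, 6 with a mean per group, 17 with 25 libraries, 2 without the trend and 0 to 4 without single libraries. The contrast of light minus boxed (6) gave 18 with 25 libraries and 1 to 16 without single libraries. Of the pre-veraison calls, those of DFR, AM1, F3H2, LAR2, HY5, C4H (VIT_11s0065g00350), 4CL (VIT_16s0039g02040) and STS (VIT_16s0100g00770) were lost with each stage alone. Those of DFR, F3H2, LAR2, HY5 and C4H were also lost with 25 libraries. At veraison those of MYBA1, AM3, GST4 and NCED1 were lost with each stage alone. Of named genes not called, 10 of 29 at pre-veraison and 10 of 19 at veraison were called in at least 1 alternative, and 1 of 48 (MYBA1) for light minus boxed. The cause of these moves was not tested. The anthocyanin difference of -0.0822 ranged from -0.103 to -0.0528 without single libraries.

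No paired analysis was possible because V. acerifolia libraries carry no number to pair with V. cinerea. With the V. cinerea number as a replicate block within that species, the counts were 6561 at pre-veraison, 9424 at veraison, 7 for the change between stages, and 18 and 2 for the stage changes in V. acerifolia and V. cinerea. Among named genes GST4 and NCED1 lost their veraison calls in that fit. It added calls for ANR at veraison (adjusted p = 0.030) and, at pre-veraison, for LAR1 (0.010), PAL VIT_08s0040g01710 (0.014), STS VIT_16s0100g01100 (0.020) and MYBPA1 (0.016, lower). The change between stages of VIT_04s0023g03460 lost its call.

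Depth is unknown, so values near 0 cannot be given a floor. Single V. acerifolia libraries leave no replicate of any condition, and species cannot be told apart from vine, site or read assignment.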
